A study of Mus musculus with 14 samples.

Results

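The comparison described here was that of Klf5 knockdown with control siRNA in undifferentiated C2C12 myoblasts on day 0, before differentiation medium was applied. C2C12 is an established mouse myoblast line, here obtained from ATCC, that divides in serum-rich medium and fuses into myotubes when serum is lowered. Cells received either a pool of siRNAs directed at Klf5 (siKlf5) or a control siRNA (siCtrl) with a lipid reagent, and polyadenylated RNA was sequenced on day 0 and after 1, 2 and 3 days in differentiation medium. Each siRNA and day had 1 library, so the day 0 comparison was 1 library against 1, which were 2 of the 8 RNA libraries and of the 14 samples of the series (the 6 chromatin samples were not analysed here). The members were all transcripts with a mean of at least 10 over the 8 RNA libraries, a filter that did not use the day 0 difference. It kept 11591 of the 24016 transcripts in the table. Of the transcripts next to the filter, Fetub (mean 10.0) was kept and Zfp429 (mean 9.97) was not.

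Klf5 is a zinc-finger transcription factor of the Kruppel-like family, whose members share a DNA-binding domain of adjacent zinc fingers and recognise GC-rich and CACCC elements in promoters and enhancers. Family members are best known for switching cells between growth and differentiation, and Klf5 in particular for growth and tissue remodelling in smooth muscle and gut epithelium. Myoblasts are committed muscle precursors that already carry the master regulators Myod1 and Myf5, and raise Myog and the contractile genes as they differentiate.

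Levels are given as FPKM scaled to a library total of 10000000 reads. They are on a scale 10 times that of a standard FPKM, per length of exon. The authors' limit of 3 reads for a position can hold down the levels of abundant transcripts, so levels of different genes compare only roughly. Differences are log2 ratios of siKlf5 to siCtrl after 0.1 was added to both. Because the table kept at most 3 reads for a position, and transcripts with exactly 6 reads were in excess, 95% intervals were computed on reads divided by 6, by the exact Clopper-Pearson method. They cover counting error only and say nothing of the spread between cultures. The siCtrl and siKlf5 libraries of day 0 held 12178833 and 11136799 transcript reads. A ribosomal precursor, Rn45s, took 0.855% of the reads that the authors scaled to in siCtrl (19674231) and 1.11% in siKlf5 (17882965), and the part of this difference in the results was not tested.

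Klf5 itself (NM_009769, mm9 chr14:99697910-99712628, plus strand, 1719 bases of exons) was at 224 in the siCtrl library of day 0 and at 35.1 in the siKlf5 library, from 757 and 108 reads. The siKlf5 library held 15.7% of the control level (log2 ratio -2.67, 95% interval -3.47 to -1.95), so the targeted gene went the way of the labels. Day 0 was the day on which siCtrl held the least Klf5: control levels of days 1, 2 and 3 were 381, 614 and 933, against 159.6, 192 and 211 in siKlf5. The ratio was farther from 0 on day 0 than on the later days, at -1.25, -1.68 and -2.14. The plot of levels in each library shows that the siKlf5 libraries of days 1 to 3 held less Klf5 than their own controls and also less than the siCtrl library of day 0.

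The labelled cell type was checked with markers of myoblasts and of other cells. In siCtrl and siKlf5 on day 0, Myod1 was at 502 and 398, Myf5 at 203 and 182, Des, the intermediate filament of muscle, at 1445 and 1264, Cdh15, the muscle cadherin, at 956 and 904, and Itga7, the laminin receptor of myoblasts, at 1600 and 1423. Ncam1 (171 and 150.1) and Vcam1 (264.1 and 263.7), both adhesion molecules, were also present in both libraries. All 7 myoblast markers were within 1.5-fold. Summed over 10 endothelial markers the level was 2.06 in siCtrl and 1.27 in siKlf5, with Cdh5, Pecam1, Cldn5, Emcn, Erg and Tie1 at 0 in both. The 12 blood cell markers summed to 40.2 and 56.5, led by Lyz2, with Cd3e and Itgax at 0. The 12 epithelial markers summed to 388 and 254, most of it Krt19, a keratin of simple epithelia, with Epcam, Krt5 and Krt18 at 0. The 10 bone markers summed to 136 and 124 (led by Runx2, with Bglap and Ibsp at 0), the 10 fat markers to 174 and 149 (led by Pparg, with Adipoq and Plin1 at 0), the 9 cartilage markers to 223 and 151 (led by Sox9, with Acan and Comp at 0), and the 11 nerve markers to 708 and 543 (led by Tubb3, with Snap25 and Syt1 at 0). The sums were lower in siKlf5 for every list but that of blood cells, and Krt19, Tubb3 and Sox9 made up most of the difference in their lists. The part of these markers in the results below was not tested. In bulk RNA, fewer cells of a type and less RNA per cell cannot be told apart.

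Across the 11591 transcripts the day 0 ratio was centred near 0, with a median of 0.01, and 5478 transcripts (47.3%) were below 0. Past 1.5-fold, 756 transcripts were lower (6.52%) and 550 were higher (4.75%) in siKlf5. Requiring also that the interval leave out 0 kept 254 lower (2.19%) and 149 higher (1.29%) transcripts, and these are called lower and higher with an interval below. How many transcripts passed 1.5-fold depended on depth. Of the 605 transcripts with fewer than 60 reads in both libraries together, 217 were lower and 157 higher, of which 2 and 1 had an interval off 0. Of the 7928 transcripts with 600 or more reads, 152 (1.92%) were lower and 72 (0.908%) higher, nearly all with an interval. The lower ones were therefore the larger group among the deep and among the shallow transcripts. Among the shallow ones both directions were common, and 117 transcripts were at 0 in siKlf5 and 82 in siCtrl. These counts include 43 transcripts at 0 in both libraries.

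**Figure D1:**
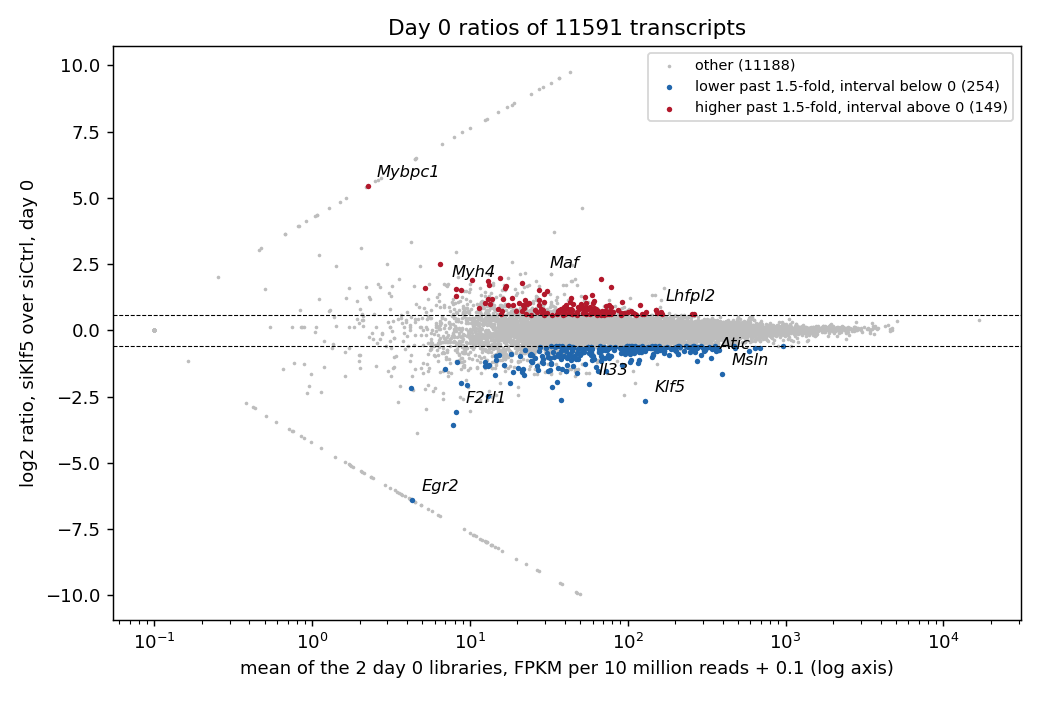
Log2 ratio of siKlf5 to siCtrl on day 0 (y axis) against the mean level of the 2 day 0 libraries (x axis, log scale) for 11591 transcripts, 1 library a side. Dashed lines mark 1.5-fold, blue points are the 254 lower and red points the 149 higher transcripts whose interval leaves out 0, and the straight arms at the left are transcripts at 0 in 1 library. Klf5 lies below every transcript of a higher mean level.

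The transcripts named next are the 12 lower and the 12 higher ones whose interval bound nearest to 0 lay farthest from it. They are therefore extremes by construction, and their day 0 values are a description. The lower 12 held Klf5 and 11 others. Msln (mesothelin, a surface glycoprotein of mesothelial cells) was at 601 in siCtrl and 194 in siKlf5, from 2479 and 726 reads (log2 ratio -1.63, -1.94 to -1.34). Il33, an alarmin of the interleukin 1 family, was at 91.5 and 22.4 (-2.02, -2.88 to -1.26). Has1, a hyaluronan synthase, was at 130.9 and 53.4 (-1.29, -1.92 to -0.70). These 3 had siKlf5 levels below siCtrl on every later day as well, with ratios of -1.23, -1.48 and -1.89 for Msln, -1.65, -1.25 and -1.98 for Il33, and -0.62, -0.59 and -0.67 for Has1 on days 1, 2 and 3. Adamtsl4, a secreted relative of the ADAMTS proteases that associates with fibrillin microfibrils, was at 28.4 and 7.14 (-1.97, -3.29 to -0.87), and its day 1 ratio was on the other side of 0, at 0.84.

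The lower 12 also held signalling genes of the cell surface. Hbegf, a ligand of the EGF receptor, was at 90.8 and 35.0 (-1.37, -2.10 to -0.70). Erbb3, a receptor of the EGF receptor family that binds neuregulins, was at 47.6 and 17.0 (-1.48, -2.29 to -0.75). F2rl1, the protease-activated receptor 2, was at 14.6 and 1.63 (-3.09, -7.46 to -0.70), the ratio farthest from 0 of the 12 and also the one with the fewest reads, 79 and 8. All 3 were below 0 on each of the later days. The remaining 4 act inside the cell. Atf3, a stress-induced transcription factor, was at 109 and 37.2 (-1.55, -2.32 to -0.84). The 2 nucleotide enzymes Atic, which closes the purine ring, and Uck2, which salvages uridine and cytidine, were at 452 and 221 (-1.03, -1.30 to -0.77) and at 382 and 171 (-1.16, -1.59 to -0.74). Cbx6, a chromobox subunit of Polycomb repressive complex 1, was at 242 and 126 (-0.94, -1.19 to -0.70).

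Among the 12 higher transcripts, 2 were muscle genes and 2 handle fatty acids. Myh4, the fast IIb myosin heavy chain, was at 7.97 in siCtrl and 25.6 in siKlf5 (1.67, 0.83 to 2.61) and was also higher on the later days, at 1.22, 1.70 and 1.39. Its sequence is close to those of the neighbouring myosin heavy chain genes, so how reads were shared among them is uncertain. Hspb7, a small heat shock protein of muscle, was at 5.52 and 20.4 (1.87, 0.39 to 3.68). Fabp3, the fatty acid-binding protein of heart and muscle, was at 28.1 and 107.6 (1.94, 0.56 to 3.57), but its ratio was below 0 on days 1, 2 and 3, at -0.93, -0.75 and -0.55. Acsl1, which activates long-chain fatty acids, was at 50.2 and 96.1 (0.94, 0.48 to 1.41). Maf, a leucine zipper transcription factor, was at 14.0 and 40.7 (1.54, 0.70 to 2.45) and stayed above 0 on each later day.

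The other higher transcripts were of mixed function. Cbx7, a second chromobox subunit of Polycomb repressive complex 1, was at 35.6 and 72.3 (1.02, 0.39 to 1.67), opposite in direction to Cbx6. Lhfpl2, a tetraspan membrane protein, had the most reads of the 12 and was at 113 and 190.2 (0.75, 0.46 to 1.05). Cep128, a protein of the centriole, was at 43.4 and 78.8 (0.86, 0.41 to 1.32), and Adi1, an enzyme of methionine salvage, at 80.7 and 157 (0.96, 0.41 to 1.53). Fam83b (6.17 and 24.8), Mast1, a microtubule-associated kinase (4.26 and 16.1), and Gm6548 (38.9 and 83.9) completed the group. None of the 12 higher transcripts was above 113 in siCtrl, whereas 6 of the 12 lower ones were. This contrast is partly built in by the choice on the ratio. By that choice siCtrl was the library with more of each lower transcript and less of each higher one. In siKlf5, Lhfpl2 and Adi1 of the higher ones were above 113, and so were Msln, Atic, Uck2 and Cbx6 of the lower ones.

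**Figure D2:**
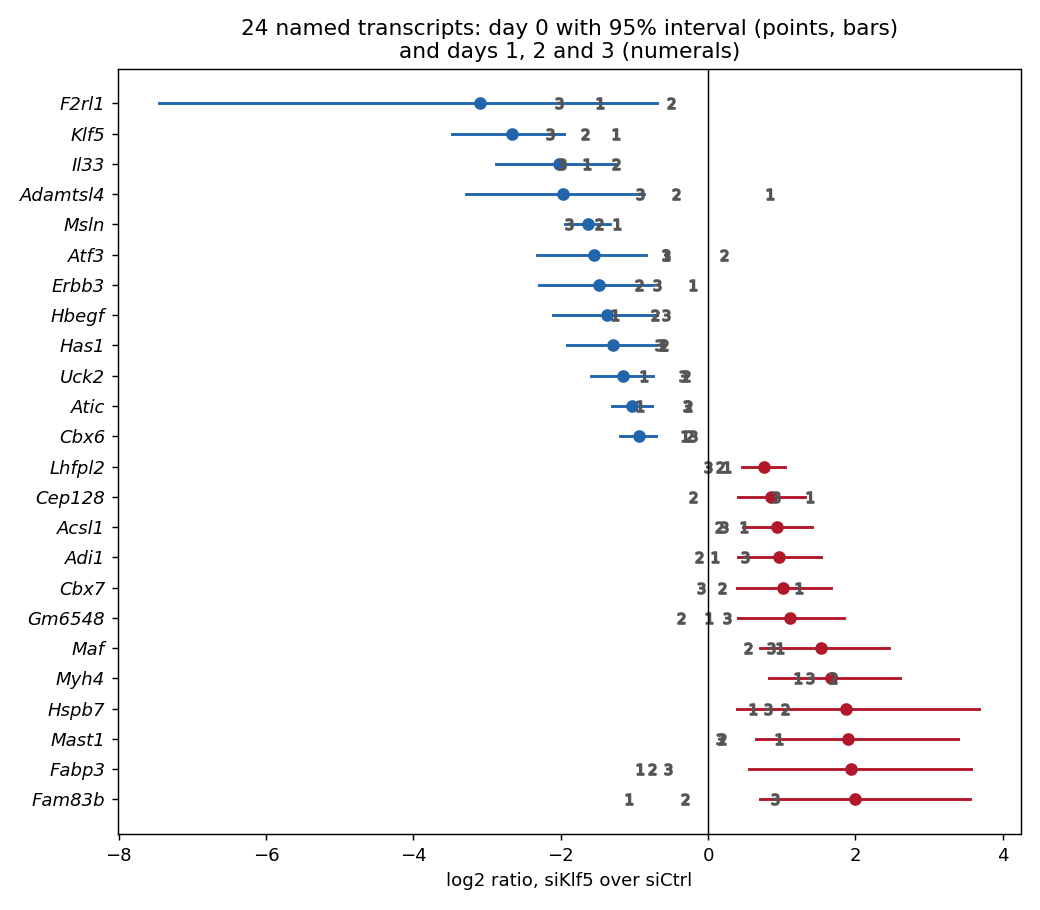
Log2 ratio of siKlf5 to siCtrl (x axis) for the 12 lower and 12 higher named transcripts on day 0, with points for the ratio, bars for the 95% counting interval, and the numerals 1, 2 and 3 for the ratios of the later days. Of the lower transcripts, only Adamtsl4 and Atf3 had a later day above 0, whereas 7 of the higher ones had at least 1 later day below 0.

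**Figure D3:**
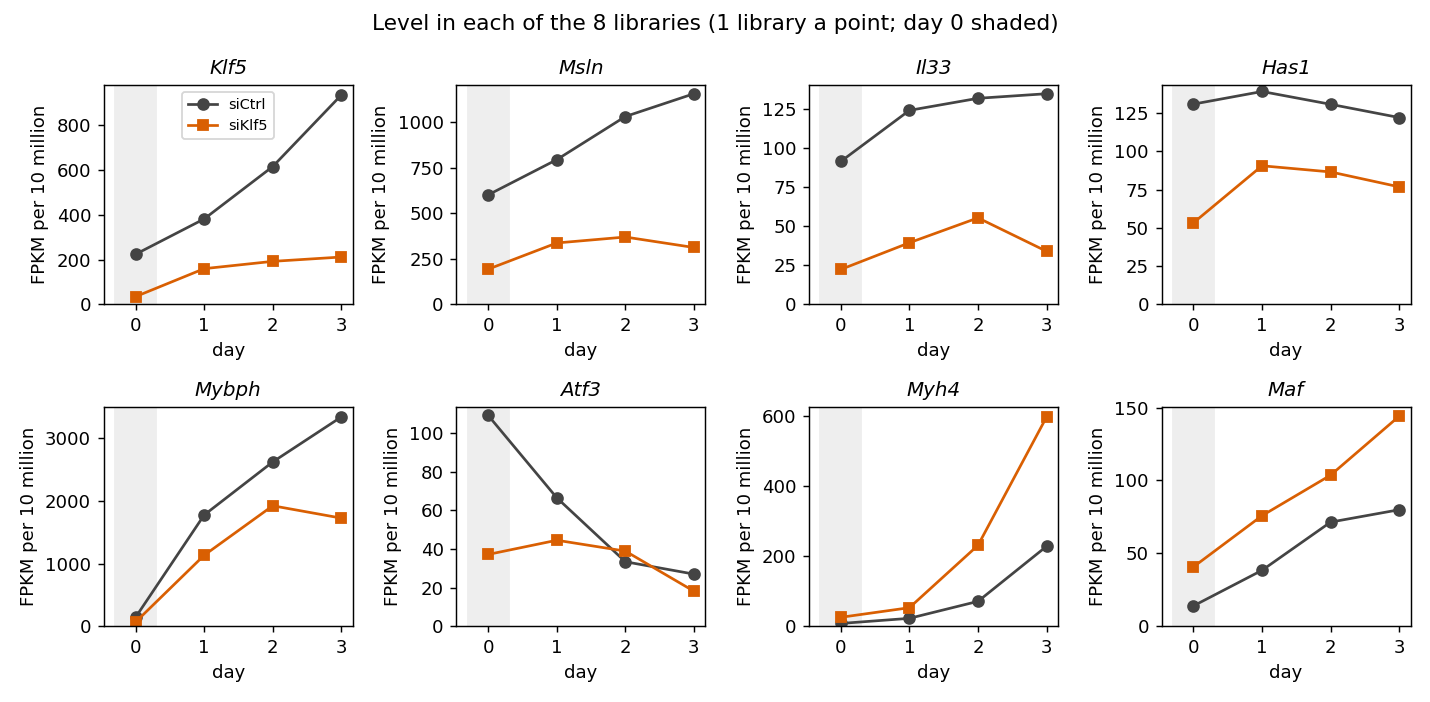
Level (FPKM per 10000000 reads, y axis from 0) of 8 named transcripts in each of the 8 libraries by day (x axis), with 1 library a point, siCtrl in grey and siKlf5 in orange. On day 0 Klf5, Msln, Il33, Has1, Mybph and Atf3 lie lower in siKlf5 and Myh4 and Maf higher.

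The Kruppel-like factor family was followed as a group because its members can bind related sites. Of 17 members, 11 passed the filter and 2 (18.2%, beside 6.52% of all transcripts) were lower on day 0, namely Klf5, the target of the siRNA, and Klf11, a factor linked to TGF-beta signalling, which was at 64.7 in siCtrl and 34.3 in siKlf5 (-0.91, -1.49 to -0.36). The share counts Klf5, whose direction was set by the siRNA, and Klf11 was the only other lower member. On days 1, 2 and 3 Klf11 was at 0.04, -0.46 and -0.48. None of the 11 was higher, beside 4.75% of all transcripts. Klf4 (482 and 514), Klf6 (453 and 401), Klf2 (304 and 277) and Klf3 (253 and 211) were the most abundant members on day 0, each above Klf5 in siCtrl, and each within 1.5-fold. Klf10, Klf13, Klf16, Klf7 and Klf9 ranged from -0.42 (Klf7) to 0.18 (Klf13). The list median was -0.14, beside 0.01 for all transcripts. Of the related Sp factors, 5 of 9 passed the filter and none of them passed 1.5-fold.

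Among the lists fixed for myogenesis, few regulators and more contractile genes passed the cutoff. Of 32 myogenic transcription factors and related regulators, 25 were kept and 19 of these (76.0%) were below 0, beside 47.3% of all transcripts, with a median of -0.26. Past 1.5-fold, 2 (8.0%) were lower and none was higher, beside 6.52% and 4.75% of all transcripts. By depth, 1 of the 23 members with 600 or more reads (4.35%) was lower, where 1.92% of all transcripts were lower and 0.908% higher. Of the 2 with at least 60 and fewer than 600 reads, 1 was lower, where 12.7% of all transcripts were. Myod1 was at 502 in siCtrl and 398 in siKlf5 (-0.33, -0.59 to -0.08), and Myog, the regulator of differentiation, at 479 and 328 (-0.55, -0.86 to -0.24), both short of 1.5-fold. Pax7, the factor of muscle stem cells, was at 15.7 and 9.31 (-0.75, -1.91 to 0.32), past 1.5-fold with an interval that included 0. Twist2, a basic helix-loop-helix factor that holds back Myod1, was at 192 and 99.6 (-0.94, -1.53 to -0.38) on day 0 but at 0.33, 0.26 and 1.03 on days 1, 2 and 3.

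Of 65 sarcomere and contractile genes, 61 were kept and 42 were below 0, with a median of -0.29. Past 1.5-fold, 20 of them (32.8%) were lower and 7 (11.5%) higher, beside 6.52% and 4.75% of all transcripts, and 11 and 3 of these had an interval off 0, beside 2.19% and 1.29%. By depth, 5 of the 23 members with 600 or more reads (21.7%) were lower and none higher, where 1.92% and 0.908% of all transcripts were. Of the 29 with at least 60 and fewer than 600 reads, 11 (37.9%) were lower and 4 (13.8%) higher, where 12.7% and 10.5% were. Of the 9 with fewer than 60 reads, 4 (44.4%) were lower and 3 (33.3%) higher, where 35.9% and 25.95% of all transcripts were. The 11 lower genes were Tnni2, Tnnc1 and Tnnt3 of the troponin complex, Casq2, which stores calcium in the sarcoplasmic reticulum, Atp2a1, the calcium pump of fast fibres, Mybph, a myosin-binding protein, Actc1, the cardiac actin of early muscle, Lmod3 and Tmod1, which cap or extend thin filaments, Klhl41, and the calcium channel subunit Cacng1. Casq2 was at 75.8 and 31.5 (-1.26, -2.02 to -0.56), and Mybph at 143 and 66.8 (-1.10, -1.70 to -0.52). Tnni2 was at 96.4 and 33.1 (-1.54, -3.08 to -0.22). The 3 higher genes were Myh4, Hspb7 and Mybpc1, a slow myosin-binding protein at 0 in siCtrl and at 4.31 (30 reads) in siKlf5. Both day 0 levels of Mybpc1 were under the mean of 10 that the filter asked for. It passed through its levels on later days, such as 65.3 in siCtrl and 165 in siKlf5 on day 3.

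Further genes that the study names in these cells lay on either side of the cutoff on day 0. Myl4, the embryonic myosin light chain, was at 59.5 and 28.2 (-1.07, -2.55 to 0.25), and had the fewest reads of these genes, 102 and 44. Myom2, of the sarcomeric M band, was at 106 and 73.1 (-0.54, -0.90 to -0.18). Myh3, the embryonic myosin heavy chain, was at 103 and 96.4 (-0.10, -0.40 to 0.20). Of 22 kept fusion and adhesion genes, 5 (22.7%) were lower and none higher, beside 6.52% and 4.75% of all transcripts. The 5 were the 4 members with at least 60 and fewer than 600 reads, where 12.7% of all transcripts were lower, and the 1 with fewer than 60 reads, where 35.9% were. None of the 17 deeper members passed 1.5-fold, where 1.92% of all transcripts were lower. Of the 5, Dysf, which reseals muscle membranes (18.9 and 7.53, -1.31), and Jam3, a junctional adhesion molecule (65.4 and 36.2, -0.85), had an interval off 0. None of the 10 kept genes of the acetylcholine receptor and synapse passed 1.5-fold, and their median was -0.10.

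The list with the median farthest below 0 among those with 10 or more kept members was that of the immediate early genes, which cells switch on within minutes of growth factor or serum stimulation. Of 32 kept members, 27 (84.4%) were below 0, against 47.3% of all transcripts, with a median of -0.40. Past 1.5-fold, 8 (25%) were lower and none was higher, beside 6.52% and 4.75% of all transcripts. By depth, the 8 comprised 2 of the 20 members with 600 or more reads, where 1.92% of all transcripts were lower, 5 of the 10 with at least 60 and fewer than 600 reads, where 12.7% were, and 1 of the 2 with fewer than 60 reads, where 35.9% were. Egr2, a zinc-finger factor of this class, was at 8.41 in siCtrl (49 reads) and at 0 in siKlf5, at least 2.47-fold lower when the empty library was set to a floor of 18 reads. Egr3 was at 29.4 and 10.8 (-1.43, -2.49 to -0.48), Dusp2, a phosphatase that switches off MAP kinases, at 31.8 and 10.8 (-1.56, -3.33 to -0.08), and Maff, a small Maf protein, at 163 and 69.2 (-1.23, -1.82 to -0.67). The matricellular proteins Ctgf (83.0 and 39.5, -1.07) and Cyr61 (467 and 284, -0.72) were lower as well. Junb went the other way without passing the cutoff (332 and 382, 0.20). On days 1, 2 and 3, when both arms were in low serum, the list median was 0.10, 0.09 and -0.09. Whether the list's ratio differed between day 0 and later days was not tested, and none of its members passed the limma test of that difference given below.

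Of 56 kept matrix genes, 8 (14.3%) were lower and 1 (1.79%) higher, beside 6.52% and 4.75% of all transcripts, with a median of -0.15. The lower ones were 5 of the 47 members with 600 or more reads (10.6%, beside 1.92% of all transcripts) and 3 of the 9 with fewer (33.3%, beside 12.7% of those with at least 60 and fewer than 600 reads). Tenascin C (Tnc) was at 342 and 193 (-0.83, interval below 0), Thbs2 at 232 and 141 (-0.72, -0.95 to -0.49) and Thbs1 at 253 and 166 (-0.61, -0.82 to -0.39), and each of these 3 matricellular glycoproteins rested on at least 1490 reads in either library. The fibrillar collagen gene Col1a2 was within 1.5-fold, at 1287 and 1417. Of 38 kept genes of growth factor signalling, 4 (10.5%) were lower and none higher. All 4 were among the 19 members with at least 60 and fewer than 600 reads (21.1%), where 12.7% of all transcripts were lower. Besides Hbegf these were Ereg, another EGF receptor ligand (27.3 and 13.8, -0.98), Pdgfra, the receptor of platelet-derived growth factor (11.3 and 4.96, -1.18), and Fgf5 (22.9 and 12.8, -0.83, -2.16 to 0.39). Ankrd1, a muscle ankyrin repeat protein and target of the Hippo pathway, was at 1294 and 865 (-0.58, -0.75 to -0.41), just inside the cutoff.

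Few cell cycle and housekeeping genes passed 1.5-fold, which was near the share of all transcripts at their depth. With 600 or more reads were 47 of 49 DNA replication genes, 56 of 57 mitosis genes, 23 of 24 cyclins and Cdk inhibitors, 76 of 76 cytosolic ribosomal protein genes and 70 of 74 respiratory chain genes, and of all transcripts at that depth 1.92% were lower and 0.908% higher. Those below 0 were 10 DNA replication genes (20.4%), 15 mitosis genes (26.3%), 9 ribosomal protein genes (11.8%) and 28 respiratory chain genes (37.8%), beside 47.3% of all transcripts. Of the cyclins and Cdk inhibitors, 11 (45.8%) were below 0. Of the DNA replication genes 1 was lower and none was higher, with a median of 0.17. None of the mitosis genes passed 1.5-fold (median 0.09), and Mki67, the proliferation marker, was at 197 and 250.1. Cdk6 was the 1 lower gene of 24 cyclins and Cdk inhibitors, at 127 and 75.0 (-0.76), and Cdkn1a, the inhibitor p21, was at 1079 and 724 (-0.58, -0.76 to -0.40). None of the ribosomal protein genes and none of the respiratory chain genes passed 1.5-fold. The same held for 36 genes of cholesterol and fatty acid synthesis, 25 chaperones, 16 genes of the Notch pathway and 16 of the small RNA pathway, of which 33, 23, 14 and 15 had 600 or more reads. The limit of 3 reads for a position can pull the ratios of abundant transcripts toward 0. Rps16, a ribosomal protein gene, held 2263 reads in siCtrl on 608 bases of exons. The part of that limit in these counts was not tested. On days 1, 2 and 3, 9, 0 and 4 DNA replication genes and 16, 2 and 14 mitosis genes were higher in siKlf5, where 12.1%, 3.42% and 6.19% of all transcripts were. The difference between day 0 and later days was not tested for these lists.

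In the remaining lists, counts past 1.5-fold are to be read beside the 6.52% lower and 4.75% higher of all transcripts. Of 24 kept genes of the interferon and double-stranded RNA response, none was lower and 2 (8.33%) were higher: Dtx3l, a ubiquitin ligase (7.96 and 18.1, 1.17), and Tap2, a peptide transporter (10.9 and 25.8, 1.24). Both had at least 60 and fewer than 600 reads, a depth at which 10.5% of all transcripts were higher. The list median was 0.00. Of 34 genes of the p53 response and cell death, 1 was lower and 4 (11.8%) were higher. Of these, Casp9 (52.7 and 85.1, 0.69) and Trp53inp1 (15.2 and 30.5, 1.00) had an interval off 0. Among the 4 higher genes, 2 had fewer than 60 reads, where 25.95% of all transcripts were higher. In glycolysis, 3 of 26 genes (11.5%) were lower and none was higher. Of the 3, Pfkfb3, which makes the activator of phosphofructokinase (37.6 and 19.04, -0.98), and the enolase Eno2 (116 and 64.5, -0.84) had an interval off 0. Of 40 clustered histone genes, 5 were lower and 10 higher, and of these only Hist2h3b had an interval off 0. Their transcripts are short, held few reads and have near-identical copies that share reads. Of 20 kept genes known from other tissues as Klf5 targets, 3 (15.0%) were lower and none was higher, with a median of -0.12. Among the 3 were the keratin Krt14 (interval -2.25 to 0.47) and the uncoupling protein Ucp2 (-1.59 to 0.16). Only 1 of the 3 had an interval off 0, and it was neither of these. By depth, 2 of the 6 members with at least 60 and fewer than 600 reads were lower, where 12.7% of all transcripts were. Of the 14 with 600 or more reads, 1 (7.14%) was lower, where 1.92% were. Lower and higher were 3 and 0 of 34 smooth muscle genes, 4 and 3 of 18 cytokines, 3 and 1 of 33 genes of TGF-beta signalling, 3 and 2 of 31 of Wnt and Hippo signalling, 2 and 2 of 29 of fatty acid oxidation, 1 and 0 of 47 of amino acid and endoplasmic reticulum stress, and 1 and 1 of 13 imprinted genes. The shares lower ran from 2.13% (amino acid and endoplasmic reticulum stress) to 22.2% (cytokines) in these lists, and those of the smooth muscle, TGF-beta, Wnt and Hippo, fatty acid oxidation and imprinted lists lay between 6.90% and 9.68%. Of the 4 lower cytokines, 2 were among the 3 members with fewer than 60 reads, where 35.9% of all transcripts were lower. Of the 11 with at least 60 and fewer than 600 reads, 2 were lower, where 12.7% of all transcripts were. Only 1 of the 4 had an interval off 0.

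**Figure D4:**
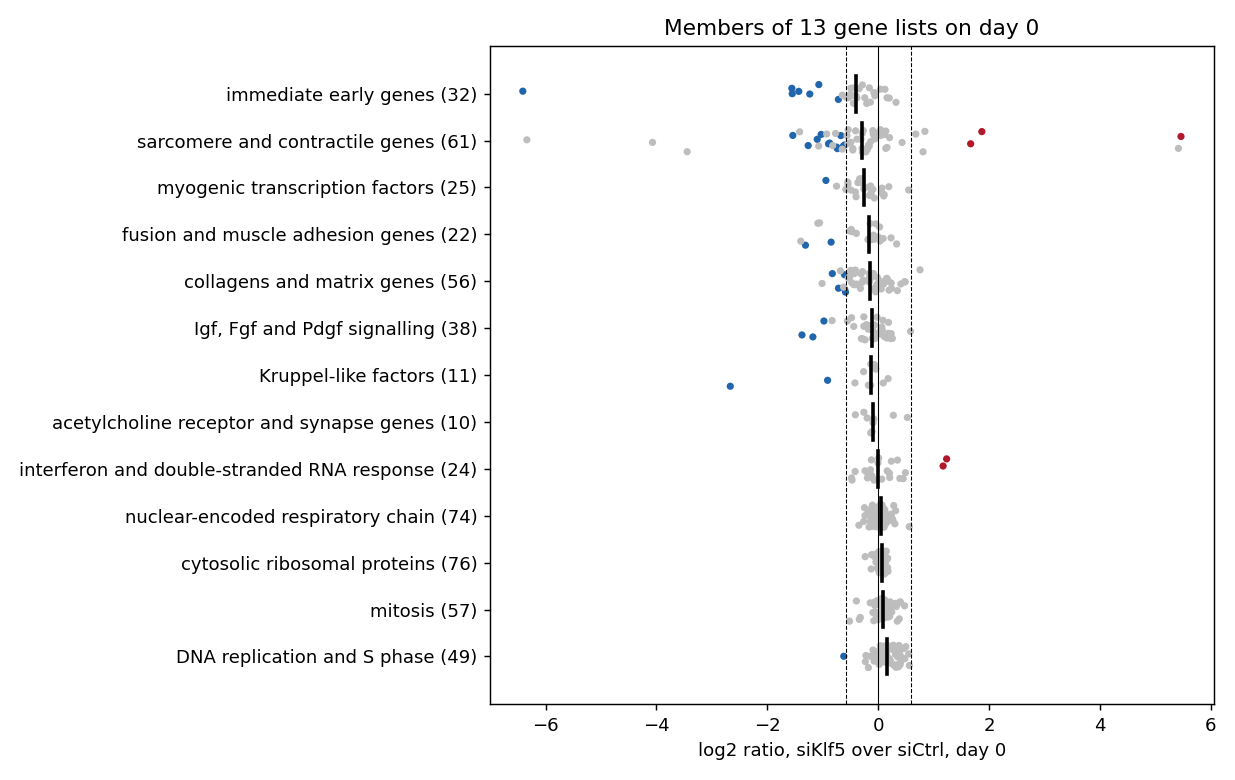
Log2 ratio of siKlf5 to siCtrl on day 0 (x axis) of each kept member of 13 gene lists (y axis, number of kept members in parentheses), with black bars for list medians, dashed lines for 1.5-fold, and blue and red points for lower and higher members whose interval leaves out 0. Immediate early genes have the lowest median, -0.40, and blue points stand mainly in the immediate early, contractile and matrix lists.

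The later libraries gave the one check of day 0 calls in RNA that the day 0 pair did not share. The labels do not say whether libraries of different days came from 1 culture series. The later libraries may therefore not be independent of the day 0 cultures. Of the 254 transcripts lower with an interval on day 0, 185 (72.8%) were below 0 on day 1, 196 (77.2%) on day 2 and 175 (68.9%) on day 3, where the shares of all transcripts were 44.6%, 54.5% and 49.9%. Past 1.5-fold, 69, 43 and 42 of them were lower on days 1, 2 and 3 (27.2%, 16.9% and 16.5%), beside 7.12%, 7.5% and 7.64% of all transcripts. The 149 higher transcripts kept their side in 104 cases on day 1 (69.8%, against 55.0% of all), in 71 on day 2 (47.7%, against 45.4%) and in 82 on day 3 (55.0%, against 49.9%). Past 1.5-fold, 41, 13 and 23 of them were higher on days 1, 2 and 3 (27.5%, 8.72% and 15.4%), beside 12.1%, 3.42% and 6.19% of all transcripts. The share of lower calls on their own side was above that of all transcripts on each later day, and that of higher calls was so by the widest margin on day 1. For higher calls on day 2 the order turned under median-ratio centring, added after the data were seen, with 51.0% of the calls and 52.0% of all transcripts above 0. These shares were not tested.

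**Figure D5:**
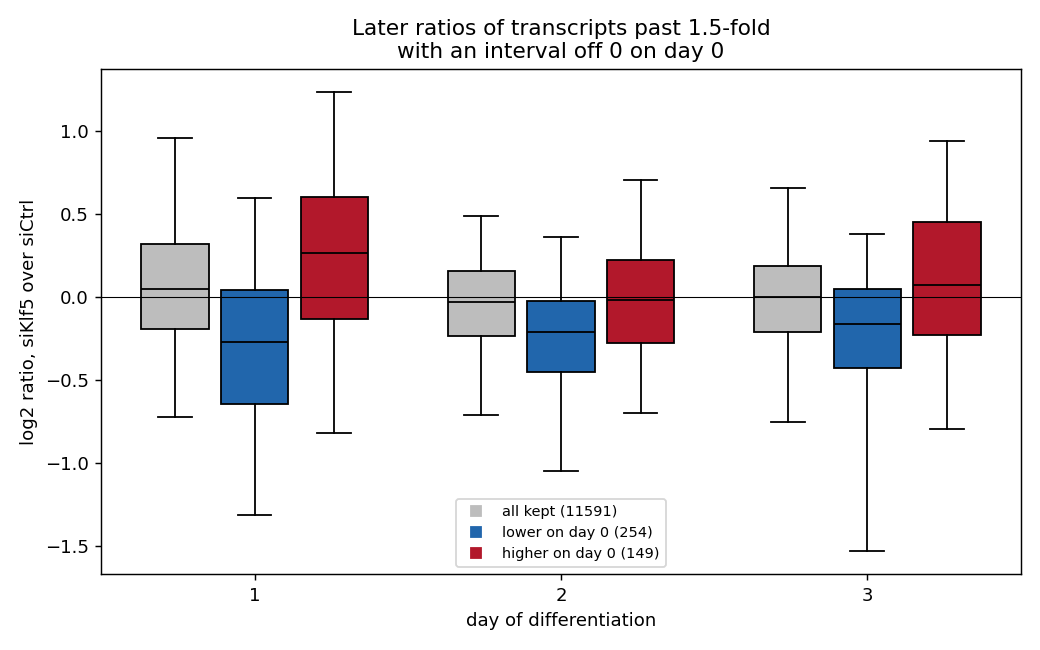
Log2 ratio of siKlf5 to siCtrl (y axis) on days 1, 2 and 3 (x axis) of all 11591 transcripts (grey), the 254 lower (blue) and the 149 higher (red) transcripts of day 0, with boxes for the quartiles, lines for the medians and whiskers for the 5th and 95th percentiles. The blue boxes have medians of -0.27, -0.21 and -0.16.

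Of the 254, 15 were lower past 1.5-fold on all of days 1, 2 and 3, where 123 of all transcripts (1.06%) were. Besides Klf5, Msln, Il33 and Has1 they included the adhesion and matrix genes Itga6, a laminin receptor subunit (154 in siCtrl and 88.2 in siKlf5 on day 0), Ntn4, a netrin of basement membranes (63.8 and 30.5), and Adamts14, a procollagen protease (159 and 97.1). Camk2a, a calcium-dependent kinase (13.8 and 3.44), Suox, the sulphite oxidase (215 and 126), and Slc25a29, a mitochondrial carrier (85.1 and 49.98), were also among them, with Als2cl, Tigit, Tmem45a, Ccdc88c and Gm14137. Of the 149 higher transcripts, 7 were higher on all later days (66 of all transcripts were, 0.569%), namely Myh4, Hspb7, Mybpc1, Rps6ka1, Tmeff2, Car2 and Pcx. Car2, a carbonic anhydrase, was at 84.2 and 132 on day 0, and Pcx, pyruvate carboxylase, at 34.7 and 54.1.

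A fit over all 8 libraries with limma, on log2(FPKM + 0.1) with terms for day, siRNA and siRNA on day 0, took its spread from how the siRNA ratio varied among days 1, 2 and 3. It left 2 residual degrees of freedom and assumed that the day 0 pair varied like the others. The spread of each transcript was drawn toward a trend over all transcripts, which weighed as 5.28 further degrees of freedom. At an adjusted p under 0.05, 9 transcripts were lower on day 0 (0.0776%) and 4 higher (0.0345%), of which 10 had a day 0 library at 0. Klf5 was among them, at -2.67 ± 0.28 (SE, limma adjusted p = 0.036), with Slc2a6, a sugar transporter (11.5 in siCtrl and 1.84 in siKlf5, adjusted p = 0.036), and Cox8b, a cytochrome oxidase subunit of muscle (34.0 and 6.23, adjusted p = 0.037). Slc2a6 rested on 48 and 7 reads and Cox8b on 24 and 4, and their day 0 intervals, -7.47 to 0.12 and -10.34 to 1.27, included 0. Msln had a limma adjusted p of 0.082 and Il33 of 0.16. The ratio of Klf5 on day 0 lay 0.98 below the mean of days 1 to 3 (SE 0.33, limma adjusted p = 1.00), so the difference between day 0 and later days was not past the threshold. That test called 4 transcripts with a day 0 ratio below the later mean (0.0345%) and 3 above it (0.0259%), all with a day 0 library at 0. With 1 added in place of 0.1, limma called no transcript, and 381 lower and 146 higher ones had an unadjusted p under 0.05. The calls, that of Klf5 among them, were also lost when day 2 was left out.

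Transcription start regions of 4 lower genes are shown because Kruppel-like factors are known to bind CACCC elements: Msln and Has1, lower on all days, and Atf3 and Egr2, of the immediate early list. Each run is the 250 bases before the start listed in the table, read from the mm9 genome in the direction of transcription, and capitals mark CACCC on either strand (GGGTG on the other).
Msln, chr17:25891273-25891522, minus strand: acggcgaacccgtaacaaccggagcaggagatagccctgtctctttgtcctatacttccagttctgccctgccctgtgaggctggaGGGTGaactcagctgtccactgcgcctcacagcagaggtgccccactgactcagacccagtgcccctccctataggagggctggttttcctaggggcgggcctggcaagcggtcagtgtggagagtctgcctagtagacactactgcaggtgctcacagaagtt
Has1, chr17:17992153-17992402, minus strand: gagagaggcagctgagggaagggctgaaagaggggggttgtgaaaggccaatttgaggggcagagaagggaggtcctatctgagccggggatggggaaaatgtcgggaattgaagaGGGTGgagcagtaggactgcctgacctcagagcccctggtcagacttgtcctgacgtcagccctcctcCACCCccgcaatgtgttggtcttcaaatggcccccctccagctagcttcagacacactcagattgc
Atf3, chr1:193007213-193007462, minus strand: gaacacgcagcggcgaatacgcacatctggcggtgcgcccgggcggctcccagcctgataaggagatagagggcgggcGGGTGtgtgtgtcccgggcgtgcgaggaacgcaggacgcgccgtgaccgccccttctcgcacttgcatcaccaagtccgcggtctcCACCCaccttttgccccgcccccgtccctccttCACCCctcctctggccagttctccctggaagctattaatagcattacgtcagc
Egr2, chr10:67000367-67000616, plus strand: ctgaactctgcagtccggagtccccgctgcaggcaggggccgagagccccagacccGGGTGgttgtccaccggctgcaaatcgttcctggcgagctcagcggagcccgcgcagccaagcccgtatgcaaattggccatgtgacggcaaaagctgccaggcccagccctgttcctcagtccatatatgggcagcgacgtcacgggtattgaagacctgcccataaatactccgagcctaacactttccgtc

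The letters CACCC occurred 1 time in the Msln and Egr2 windows, 2 times in that of Has1 and 3 times in that of Atf3. They are common: of 11591 such windows 55.8% held CACCC on either strand, beside 62.6% of the 254 lower and 52.3% of the 149 higher transcripts. The GC box GGGCGG was in 61.0% of all windows, 59.4% of the lower and 59.7% of the higher ones. The E-box CANNTG, the class of site bound by myogenic helix-loop-helix factors, was in 55.4%, 57.1% and 61.1%, and TGANTCA, the AP-1 element, in 4.10%, 5.91% and 4.03%. The CArG box, the element of serum response factor, was in 1.22% of all windows, 3.15% of the lower and 1.34% of the higher ones, and in 5 of the 32 windows of immediate early genes (15.6%), that of Egr2 among them. The same 32 windows held CACCC in 59.4%, GGGCGG in 68.8%, CANNTG in 53.1% and TGANTCA in none. These matches are descriptions of letters in a window and not of binding.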

How the data were processed

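The deposited table held 8 RNA libraries. Per the labels and the study's methods, the authors aligned paired-end reads to mm9 with STAR and quantified RefSeq genes with HOMER. Per the labels these were exon FPKM, condensed to 1 transcript a gene, limited to 3 reads a position and scaled to a total of 10000000. The study's methods instead name RPKM over gene bodies. The labels also name a normalization of read counts with another tool. The deposited FPKM gave whole reads at 1 scale a library, and whether that step touched these columns is not settled. Values were used as deposited. In addition, 8 log2 columns of per-sample values were not used here. Whole reads (within 0.1) came out of all checked low FPKM values and were used for depth and intervals. Ratios used a pseudocount of 0.1, and 1.5-fold was the cutoff. With 1 library a side no test of day 0 alone was made. limma 3.58.1 (R 4.3.3) with Benjamini-Hochberg adjustment was run over 8 libraries. Code for reads, ratios, intervals and limma was tested on simulated data. Named genes were Klf5 and its family, genes the study names, the 12 lower and 12 higher extremes by interval bound (exons of at least 300 bp), up to 2 a direction from each of 37 lists (at least 60 reads), and the 5 smallest limma p a direction for day 0 against later days. Others, such as called list members, were named after their values were seen. Members and lists were chosen with earlier results of these data known. The values of a few genes are not reported here.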

Additional observations from a re-analysis of the deposited data

Results flagged for a closer look

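The limma fit found 7 transcripts whose day 0 ratio differed from the mean ratio of days 1 to 3 at an adjusted p under 0.05. The day 0 ratio was below the later mean by a log2 difference of -7.59 for Mcee, an epimerase of propionate breakdown (limma adjusted p = 0.029), -7.65 for Pvalb, the calcium buffer parvalbumin (0.029), -5.61 for R3hdml (0.048) and -5.42 for Myoz2, a Z-disc protein (0.048). It was above it by 4.98 for Art1, a surface ADP-ribosyltransferase (0.029), 6.05 for Tceal7 (0.029) and 6.24 for Fn3k, a kinase that repairs glycated proteins (0.036).

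All 7 were at 0 in 1 of the day 0 libraries, so the sizes depend on the 0.1 that was added. The other day 0 library held 34 reads of Mcee, 6 of Pvalb, 13 of R3hdml, 18 of Myoz2, 6 of Art1, 27 of Tceal7 and 9 of Fn3k. None of the 7 had a day 0 interval that left out 0. With 1 added, or with day 2 left out, none passed limma.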

How the results depend on the processing

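Counts past 1.5-fold moved with the filter and the cutoff: with a mean of at least 1, 1595 transcripts were lower and 1319 higher, with at least 30, 411 and 247, with no filter 2644 and 2374, and with a 2-fold cutoff 302 and 199. Other pseudocounts, both scalings, a mean of at least 5, a minimum exon length, a filter on the day 0 libraries and, added after the data were seen, at least 60 reads kept these counts within 1.5 times. With intervals on single reads, 629 lower and 458 higher transcripts had an interval off 0, and both scalings kept the interval counts within 1.5 times. limma was less stable. For day 0 it called 0 lower and 0 higher transcripts with a pseudocount of 1 (unadjusted p under 0.05: 381 and 146), 89 and 38 without day 1, 0 and 0 without day 2 (unadjusted: 290 and 87), and 16 lower without day 3. For day 0 against later days it called 0 and 0 with a pseudocount of 1 (unadjusted: 280 and 186), 33 and 33 without day 1, 0 and 0 without day 2 (unadjusted: 197 and 107), and 5 higher with either scaling. The causes were not tested. Under the alternatives run, the Klf5 ratio and the ratios of the named genes stayed within their intervals, and list medians within the median bounds of their members' intervals. Shares of day 0 calls on their own side were above those of all transcripts under both scalings, except higher calls on day 2 under median-ratio centring (51.0% against 52.0%). The limma fit pairs the libraries by day. For day 0 alone, no paired analysis was possible because it had 1 library of each siRNA.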
